A study of Rattus norvegicus with 12 samples.

Results

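The genes described here carry cells from G1 into S phase and copy their DNA: 36 symbols chosen by name, from cyclin E and the E2F factors to the replicative helicase, the polymerases and the enzymes that make deoxynucleotides. Of the 36, 33 had a row among the 17419 genes of the deposited tables, and each of the 33 passed the filter on low counts, along with 12535 genes in all. E2f2, E2f8 and Chaf1a were not analysed here. The 36 symbols were chosen with earlier results of these data known. RNA came from primary cultures of ventricular cardiomyocytes of newborn (P0) wild-type Sprague-Dawley rats, grown in 15% serum for about 40 hours and collected 48 hours after transfection with small interfering RNA (siRNA). Each of the 4 siRNA groups had 3 libraries. The double knockdown received 10 nM of Btg1 siRNA and 10 nM of Btg2 siRNA, and no scramble. The Btg1 knockdown received 10 nM of Btg1 siRNA with 10 nM of scramble, the Btg2 knockdown 10 nM of Btg2 siRNA with 10 nM of scramble, and the scramble controls 20 nM of scramble. Fibroblasts were separated off before plating, which leaves the cultures enriched for cardiomyocytes but not pure. Whether replicate libraries stem from different cultures or litters is not in the labels. The p-values therefore rest on the spread among the libraries as they are, and that spread may be technical.

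Btg1 and Btg2 encode related antiproliferative proteins that bind the CCR4-NOT deadenylase. Entry into S phase begins when cyclin D and cyclin E kinases phosphorylate the retinoblastoma protein and free E2F factors, which then raise the transcription of cyclin E, of E2F1 itself and of most replication genes. In G1 the origin recognition complex, Cdc6 and Cdt1 load rings of the Mcm2 to Mcm7 helicase on DNA, a step called licensing, and Cdc45 and the GINS complex later switch the rings on. Rat cardiomyocytes divide around birth and largely leave the cell cycle soon after, while fibroblasts and endothelial cells can go on dividing. Which cells divided in these cultures was not measured. RNA of a whole culture does not tell fewer cycling cells from less RNA per cycling cell.

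With the Btg1 siRNA alone 18 of the 33 replication genes rose, 1 fell and 14 did not pass, where 18.7% of all tested genes rose and 17.8% fell. With the Btg2 siRNA alone 18 fell, 1 rose and 14 did not pass, where 13.6% of all tested genes fell and 16.4% rose. With both siRNAs 17 fell and 1 rose against scramble, where 19.5% of all tested genes fell and 19.4% rose. Set against the Btg1 knockdown, the double knockdown had 26 of the 33 lower and 0 higher, where 11.9% of all tested genes were lower and 10.3% higher. Among the 26 were the licensing factors Cdt1 and Cdc6, the helicase subunits Mcm2 to Mcm7 and the transcription factor E2f1. A gene was called at a Benjamini-Hochberg adjusted p under 0.05 in edgeR's quasi-likelihood test over all tested genes. Most changes were modest: the called members differed by a median of 0.31 to 0.53 on the log2 scale in these 4 comparisons. The 4 comparisons share libraries, so their counts are not independent.

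Promoters are shown because E2F factors raise the transcription of most replication genes, as described above. Printed are some members that moved together and some that moved differently. A part of E2F in the changes was not tested. RefSeq windows of 300 bases (250 before the annotated start and 50 after it, assembly GRCr8) were at hand for 27 of the 33. They were searched on both strands for the 8 letters of the E2F site in 4 spellings, TTTCCCGC, TTTGGCGC, TTTCGCGC and TTTGCCGC. A match was present in 14 of the 27 members (51.9%), in 2.14% of the 33469 windows searched, and in 396 of the 9810 tested genes that had a window (4.04%). Members and tested genes counted once, with a match in any of their windows. CCAAT was present in 19 of the 27 members (70.4%), in 37.5% of all windows and in 38.0% of the tested genes that had a window. The CHR element of mitotic genes (TTTGAA or TTCGAA) was present in 4 of the 27 (14.8%), in 19.7% of all windows and in 13.7% of these tested genes. The GC box GGGCGG was present in 21 of the 27 (77.8%), in 33.1% of all windows and in 62.3% of these tested genes. Of the 23 E2F matches, 8 overlapped another E2F match and 1 overlapped a CCAAT or CHR match. A match is a run of letters and not a measured site.

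In the windows printed here, E2F matches stand in capitals. Mcm5 (chr19:13488563-13488862, plus strand), Mcm6 (chr13:42404303-42404602, minus strand), Cdt1 (chr19:67528999-67529298, plus strand) and Mcm7 (chr12:22163129-22163428, minus strand) are members that were lower in the double knockdown than in the Btg1 knockdown. Of these 4, Mcm5 and Mcm6 rose in the Btg1 knockdown, and Cdt1 and Mcm7 did not pass there. E2f3 (chr17:34810166-34810465, plus strand) holds 1 match, and in each single knockdown it moved opposite to the other members called. Cdk2 (chr7:1721829-1722128, minus strand) holds no match in this window and was the 1 member higher in the double knockdown than in scramble. Ccne1, Cdc45, E2f7, Fen1, Mcm10, Orc6, Pcna, Prim1, Rrm1 and Tk1 also hold no match in their windows. All of them were lower in the double than in the Btg1 knockdown. E2f3 and Tyms, with a match, did not pass there, nor did Cdk2, Gins2 and Rfc4, without one. Whether a match goes with a change was not tested.
Mcm5: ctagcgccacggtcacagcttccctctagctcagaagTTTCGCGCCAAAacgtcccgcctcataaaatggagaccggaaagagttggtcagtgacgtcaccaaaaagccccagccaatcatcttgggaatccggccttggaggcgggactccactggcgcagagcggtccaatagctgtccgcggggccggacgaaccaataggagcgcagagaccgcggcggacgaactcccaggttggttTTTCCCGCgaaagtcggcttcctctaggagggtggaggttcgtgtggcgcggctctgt
Mcm6: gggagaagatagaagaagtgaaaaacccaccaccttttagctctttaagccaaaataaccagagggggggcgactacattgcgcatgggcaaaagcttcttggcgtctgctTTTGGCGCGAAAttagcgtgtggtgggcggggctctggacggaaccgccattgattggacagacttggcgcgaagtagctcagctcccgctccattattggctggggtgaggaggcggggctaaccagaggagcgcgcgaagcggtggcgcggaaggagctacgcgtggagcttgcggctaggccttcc
Cdt1: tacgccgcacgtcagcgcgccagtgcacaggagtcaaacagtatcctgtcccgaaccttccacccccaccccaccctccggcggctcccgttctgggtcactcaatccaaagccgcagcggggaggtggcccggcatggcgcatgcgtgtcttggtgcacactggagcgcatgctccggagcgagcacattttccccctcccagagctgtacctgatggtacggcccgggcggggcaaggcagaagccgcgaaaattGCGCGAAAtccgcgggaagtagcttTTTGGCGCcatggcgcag
Mcm7: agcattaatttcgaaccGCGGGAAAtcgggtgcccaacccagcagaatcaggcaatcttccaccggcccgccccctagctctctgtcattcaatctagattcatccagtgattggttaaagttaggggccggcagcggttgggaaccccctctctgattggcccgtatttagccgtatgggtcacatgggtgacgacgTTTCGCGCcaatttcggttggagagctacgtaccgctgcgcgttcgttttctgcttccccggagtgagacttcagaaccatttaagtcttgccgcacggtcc
E2f3: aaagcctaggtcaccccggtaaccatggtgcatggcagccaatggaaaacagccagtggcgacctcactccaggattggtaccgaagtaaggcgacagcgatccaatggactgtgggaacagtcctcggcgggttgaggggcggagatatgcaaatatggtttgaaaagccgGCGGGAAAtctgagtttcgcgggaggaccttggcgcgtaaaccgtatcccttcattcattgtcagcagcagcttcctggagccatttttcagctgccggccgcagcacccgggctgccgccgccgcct
Cdk2: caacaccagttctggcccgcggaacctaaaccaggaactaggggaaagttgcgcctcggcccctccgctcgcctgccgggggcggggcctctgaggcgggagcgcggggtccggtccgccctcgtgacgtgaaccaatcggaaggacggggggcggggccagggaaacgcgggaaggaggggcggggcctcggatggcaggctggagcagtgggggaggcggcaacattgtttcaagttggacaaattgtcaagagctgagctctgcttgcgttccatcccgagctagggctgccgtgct

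Libraries held 24434925 to 46206581 counts, and the lowest count of any member in any library was 29, for 28 of 33 members at least 100. Levels are given as CPM (counts divided by the library total and set to a common size) scaled by TMM, and comparisons between genes use the deposited TPM, which are per gene length. The siRNA lowered their targets. Btg1 stood at 50.9, 54.4 and 49.8 CPM in the double knockdown, with 69.9, 61.8 and 66.8 CPM under its own siRNA alone and 296, 305 and 297 CPM under the Btg2 siRNA alone, against 285, 281 and 284 CPM in scramble. Btg2 stood at 69.6, 67.6 and 68.8 CPM in the double knockdown, with 170, 179 and 177 CPM under the Btg1 siRNA alone and 82.8, 85.3 and 87.4 CPM under its own siRNA alone, against 140, 132 and 144 CPM in scramble. Each gene was lowest in the 3 double knockdown libraries, and Btg2 was higher under the Btg1 siRNA alone than in scramble, by 0.34 ± 0.04 on the log2 scale (SE, edgeR adjusted p = 7.5e-07). The cultures carried cardiomyocyte transcripts at high levels: the 8 cardiomyocyte markers summed to 21254 to 21508 CPM in the double knockdown, 18422 to 20397 with the Btg1 siRNA alone, 19300 to 21288 with the Btg2 siRNA alone and 18695 to 19268 in scramble, and none of them was at 0.

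Per length, the most abundant members were Pcna, the sliding clamp of the polymerases, with a mean of 117 TPM over the 12 libraries, and Rrm1, the large subunit of ribonucleotide reductase, at 106 TPM. Tyms, thymidylate synthase, followed at 38.5 TPM and Mcm7 at 38.2 TPM. The least abundant were the origin recognition subunit Orc1 at 1.96 TPM and the repressive factor E2f7 at 0.783 TPM. In all, 28 of the 33 averaged at least 5 TPM. In GRCr8, 7 members overlap another protein-coding gene (Ccne2 with Ints8, Cdk2 with Pmel, Gins2 with Gse1, Fen1 with Tmem258, Lig1 with Zswim9, Rrm2 with Cys1, Uhrf1 with Arrdc5). The strand setting of the counting is not given in the sources used here, so reads of these neighbours may share their counts.

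The libraries were compared by the mean log2 CPM of the 33 genes relative to the scramble mean. It was -0.31, -0.13 and -0.29 in replicates 1 to 3 of the double knockdown, 0.18, 0.17 and 0.29 with the Btg1 siRNA alone, -0.32, -0.21 and -0.29 with the Btg2 siRNA alone, and -0.09, 0.03 and 0.06 in scramble. All 3 Btg1 knockdown libraries thus lay above every other library, and the double and Btg2 knockdown libraries overlapped each other and lay below all scramble libraries. The same mean over all 12535 genes stayed between -0.023 and 0.014. The highest of the 4 group means was that of the Btg1 knockdown for 27 members, of the double knockdown for 2 (Cdk2 and Gins2), of the Btg2 knockdown for 1 (E2f3) and of scramble for 3. The lowest was that of the double knockdown for 10 and of the Btg2 knockdown for 20. Within groups, too, many members shared their highest or lowest library. Replicate 2 was the highest of the double knockdown libraries for 24 members, replicate 3 the highest of the Btg1 knockdown for 23, and replicate 1 the lowest of scramble for 24. The same ranks were not counted over all tested genes.

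**Figure D1:**
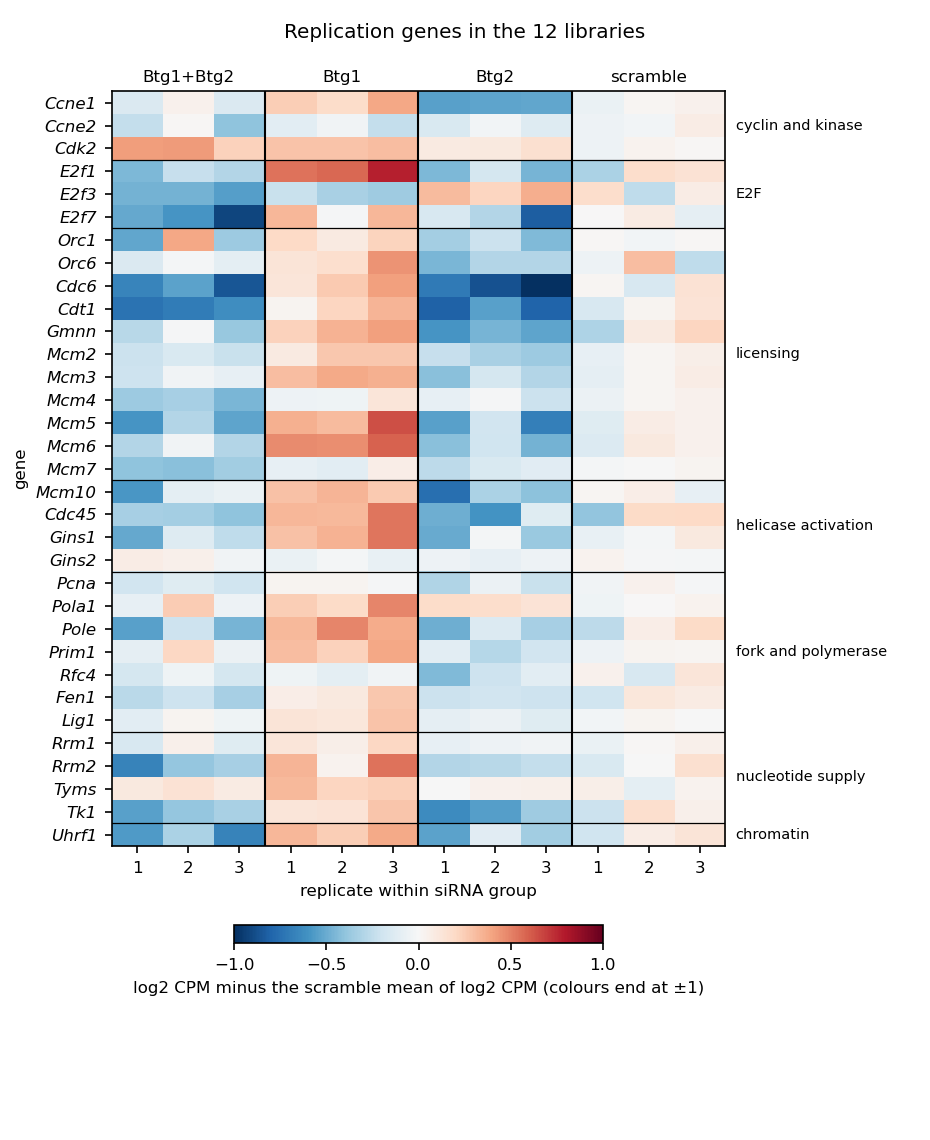
Log2 CPM of 33 replication genes (rows, by role) in 12 libraries (columns, replicates 1 to 3 of each siRNA group), minus the mean of the 3 scramble libraries. Red is above and blue below scramble: the Btg1 columns are mostly red, and the Btg1+Btg2 and Btg2 columns mostly blue, while E2f3 is blue in the Btg1 columns and red in the Btg2 columns, and Cdk2 is red in all 3 knockdown groups.

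The Btg1 knockdown was set against scramble to ask what the Btg1 siRNA alone did to these genes. Btg2 was also higher in this group, as given above, so the comparison does not isolate the loss of Btg1. Most members were higher: 18 of 33 rose and 1 fell, where 18.7% of all tested genes rose and 17.8% fell, 36.5% in all, (edgeR's quasi-likelihood test, Benjamini-Hochberg adjusted p under 0.05 over all genes). The median change over the 33 was 0.26 on the log2 scale, against a median of -0.001 over all genes. The largest rise was in E2f1, the activator that begins the S phase programme.

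E2f1 stood at 20.7, 21.2 and 24.3 CPM in the Btg1 knockdown, against 11.4, 16 and 15.7 CPM in scramble. The groups did not overlap, and E2f1 rose by 0.62 ± 0.11 on the log2 scale (SE, edgeR adjusted p = 0.00013). Mcm6, a helicase subunit, stood at 47.6, 47.5 and 51.6 CPM, against 31.3, 36.7 and 35.3 CPM in scramble, a rise of 0.50 ± 0.08 (edgeR adjusted p = 2.3e-05). Mcm3, another subunit of the ring, stood at 44.2, 46.5 and 45.8 CPM, against 33.5, 36.2 and 37.6 CPM in scramble, a rise of 0.35 ± 0.06 (edgeR adjusted p = 0.00011). Every Btg1 knockdown library was above every scramble library for each of these genes.

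The subunits of the helicase ring did not all change. Mcm5 (0.44 ± 0.11) and Mcm2 (0.21 ± 0.06) rose with Mcm3 and Mcm6, while Mcm4 was at 0.01 ± 0.06 and Mcm7 at -0.04 ± 0.05 (log2 change and SE), which did not pass. Among the cyclins and their kinase, Ccne1 (cyclin E1) rose by 0.27 ± 0.08 and Cdk2, the kinase it activates, by 0.29 ± 0.06, and Ccne2 (cyclin E2) was at -0.12 ± 0.09. Of the polymerase genes, Prim1 (primase, 0.31 ± 0.07), Pola1 (the catalytic subunit of polymerase alpha, 0.31 ± 0.09), Pole (that of polymerase epsilon, 0.38 ± 0.11) and Lig1 (DNA ligase I, 0.18 ± 0.06) rose. Pcna was at 0.01 ± 0.05. Cdc45 and Gins1 of the active helicase rose by 0.37 ± 0.14 and 0.39 ± 0.14. For nucleotide supply, Tyms (0.26 ± 0.06), Rrm2 (0.31 ± 0.11) and Rrm1 (0.13 ± 0.05) rose, and Tk1, thymidine kinase, was at 0.17 ± 0.09. The loading factors Cdt1 (0.18 ± 0.10) and Cdc6 (0.26 ± 0.13) did not pass, whereas Gmnn, geminin, which inhibits Cdt1, rose by 0.31 ± 0.12.

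E2f3 was the 1 member that fell, by 0.30 ± 0.10 on the log2 scale (edgeR adjusted p = 0.026). Uhrf1, which guides maintenance DNA methylation behind the fork, rose by 0.31 ± 0.11. These counts rest partly on single libraries: 9 members rose and 0 fell without replicate 3 of the Btg1 knockdown, and 10 rose and 0 fell without scramble replicate 1. The other 4 fits that left out 1 library called 15 to 18 members. Cdk2, E2f1, Mcm2, Mcm3, Mcm5, Mcm6, Prim1 and Tyms passed in all 6 of those fits, and the other 11 calls, the fall of E2f3 among them, ended in at least 1.

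In the Btg2 knockdown against scramble most of the called members were lower. Of 33 members 18 fell and 1 rose, where 13.6% of all tested genes fell and 16.4% rose, 30.0% in all (17.9% and 12.6% when scaled by library size alone, which left 20 members lower and 0 higher), and the median change was -0.30 on the log2 scale against -0.002 over all genes. The largest falls were in Cdc6 and Cdt1, the factors that load the helicase. All comparisons with scramble use the same scramble libraries, so their values for a gene are not independent of each other.

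Cdt1 stood at 6.51, 7.84 and 6.53 CPM in the Btg2 knockdown, against 10.2, 11.6 and 12.5 CPM in scramble. It fell by 0.73 ± 0.11 on the log2 scale (SE, edgeR adjusted p = 2.0e-05). Cdc6 stood at 3.26, 2.91 and 2.53 CPM, against 5.39, 4.77 and 5.88 CPM in scramble, and fell by 0.88 ± 0.14 (edgeR adjusted p = 6.1e-05). Ccne1 stood at 9.49, 9.57 and 9.62 CPM, against 13.2, 14 and 14.2 CPM in scramble, and fell by 0.53 ± 0.08 (edgeR adjusted p = 5.0e-05). The groups did not overlap for any of the 3 genes, and the 3 Btg2 knockdown libraries lay closest together for Ccne1.

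Of the 11 licensing genes 9 fell, all but Orc1 (-0.34 ± 0.20) and Mcm4 (-0.11 ± 0.06). They included Gmnn (-0.55 ± 0.12), Mcm5 (-0.48 ± 0.12), Mcm6 (-0.38 ± 0.08), Mcm2 (-0.30 ± 0.06), Mcm3 (-0.30 ± 0.06) and Mcm7 (-0.17 ± 0.05). Tk1 fell by 0.52 ± 0.09, Mcm10, which helps to open the helicase, by 0.50 ± 0.14, and Cdc45 by 0.40 ± 0.15. At the fork Pole (-0.34 ± 0.12), the flap nuclease gene Fen1 (-0.21 ± 0.08) and Pcna (-0.19 ± 0.05) fell, while Pola1 was at 0.16 ± 0.09. E2f1 fell by 0.39 ± 0.12 with overlapping groups (10.4, 12.6 and 10.3 CPM, against 11.4, 16 and 15.7 in scramble). E2f3 was the 1 member that rose, by 0.30 ± 0.10 (edgeR adjusted p = 0.031), a call that ended without replicate 1 or 3 of the Btg2 knockdown or scramble replicate 2. Without replicate 1 of the Btg2 knockdown 10 members fell and 0 rose, and the other 5 fits that left out 1 library called 13 to 19. Ccne1, Cdc6, Cdt1, Gmnn, Mcm2, Mcm3, Mcm5, Mcm6 and Tk1 passed in each of the 6, and the other calls ended in at least 1.

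**Figure D2:**
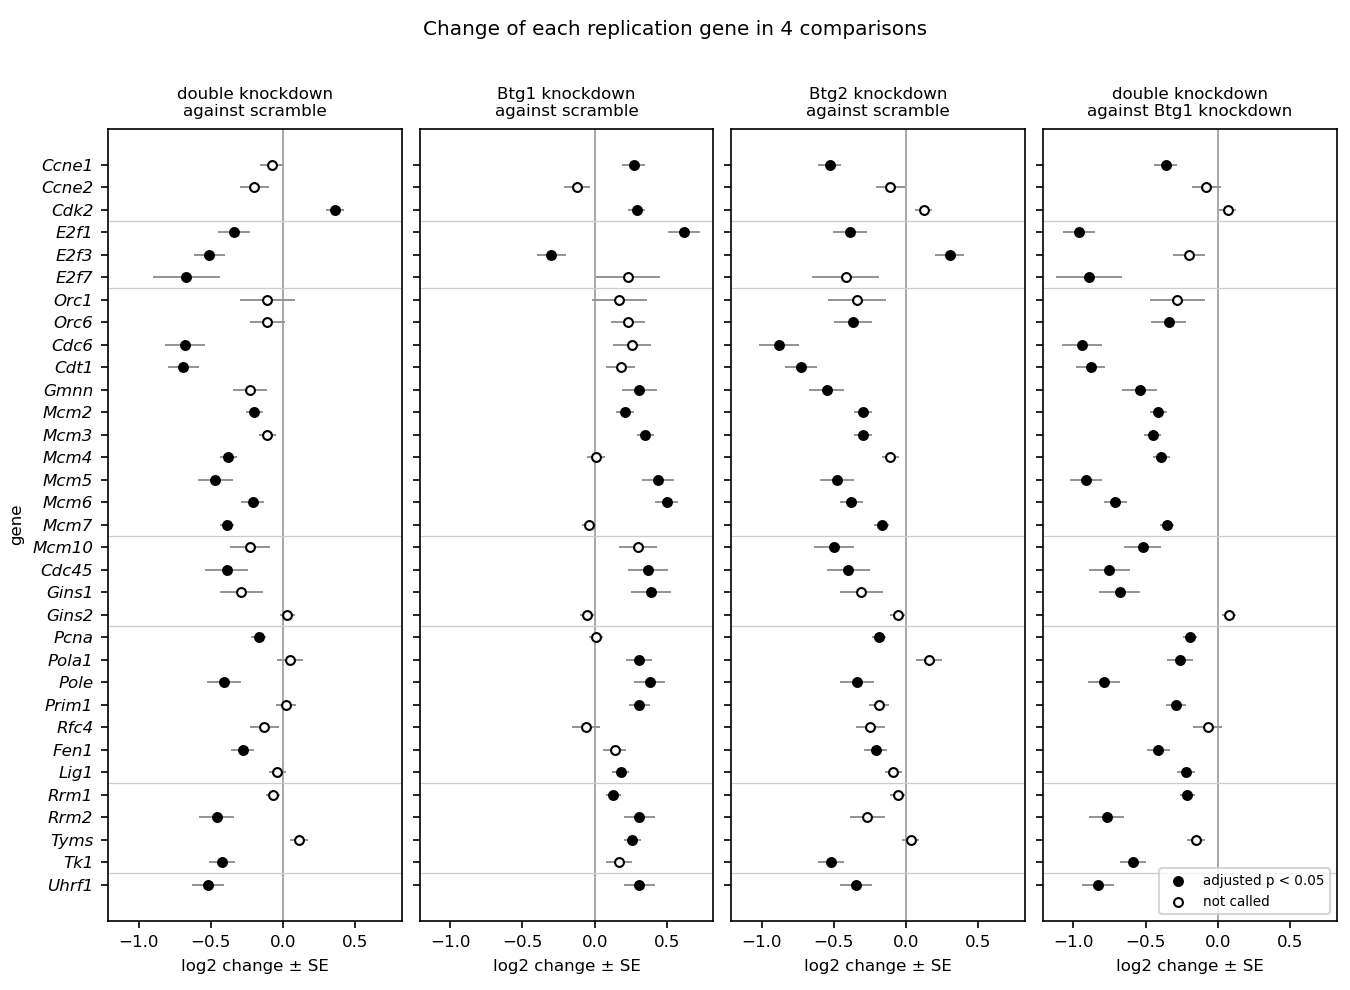
Log2 change with its SE (x axis) of each of 33 replication genes (rows) in 4 comparisons, filled where the edgeR adjusted p was under 0.05. Most points lie left of 0 in the double and Btg2 knockdowns against scramble and in the double knockdown against the Btg1 knockdown, and right of 0 in the Btg1 knockdown against scramble.

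The double knockdown against scramble gave 17 falls and 1 rise, where 19.5% of all tested genes fell and 19.4% rose, 38.9% in all. The median over the 33 was -0.23 on the log2 scale, against -0.006 over all genes. All 3 measured E2F genes fell, as did 7 of the 11 licensing genes, and Cdk2 rose.

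Mcm7, the most abundant licensing gene per length, stood at 37.6, 37.2 and 39.1 CPM in the double knockdown, 47.1, 46.3 and 52.1 in the Btg1 knockdown and 41.6, 44.8 and 46 in the Btg2 knockdown, against 49, 49.7 and 50.6 CPM in scramble. It fell by 0.39 ± 0.05 in the double knockdown (SE, edgeR adjusted p = 4.6e-06), where all 3 libraries lay below all 9 others. Cdt1 stood at 6.84, 7.03 and 7.39 CPM in the double knockdown and 11.6, 13.2 and 14.4 in the Btg1 knockdown, beside the Btg2 knockdown and scramble values given above. It fell by 0.69 ± 0.11 against scramble (edgeR adjusted p = 1.6e-05), and the double and Btg2 knockdown libraries overlapped. Cdk2 stood at 42.5, 42.6 and 37.3 CPM in the double knockdown, 38.8, 38.7 and 39.3 in the Btg1 knockdown and 33.8, 34.1 and 35.5 in the Btg2 knockdown, against 30.7, 32.6 and 32.1 CPM in scramble. It was lowest in scramble, and its rise of 0.36 ± 0.06 in the double knockdown passed (edgeR adjusted p = 2.0e-05).

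Other falls in the double knockdown were those of Cdc6 (-0.68 ± 0.14), E2f7 (-0.67 ± 0.23), Uhrf1 (-0.52 ± 0.11), Mcm5 (-0.47 ± 0.12), Rrm2 (-0.46 ± 0.12), Tk1 (-0.42 ± 0.09), Mcm4 (-0.38 ± 0.06) and Fen1 (-0.28 ± 0.08). Uhrf1 stood at 7.17, 8.52 and 6.7 CPM in the double knockdown, 13.4, 12.6 and 13.8 in the Btg1 knockdown and 7.34, 9.82 and 8.34 in the Btg2 knockdown, against 9.23, 11.2 and 11.6 CPM in scramble. Its double knockdown libraries lay below all scramble libraries. Pcna stood at 63.6, 67.1 and 63.3 CPM in the double knockdown, 74.1, 74.1 and 72.4 in the Btg1 knockdown and 59.1, 70.1 and 62.5 in the Btg2 knockdown, against 71, 75.2 and 72.3 CPM in scramble. Its fall of 0.17 ± 0.05 (edgeR adjusted p = 0.012) ended without scramble replicate 2 (adjusted p = 0.062).

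Some abundant members did not pass. Rrm1 stood at 144, 167 and 148 CPM in the double knockdown, 175, 168 and 186 in the Btg1 knockdown and 152, 155 and 157 in the Btg2 knockdown, against 154, 162 and 167 CPM in scramble. Its double knockdown and scramble libraries overlapped (-0.07 ± 0.05), and it passed as lower without replicate 2 of the double knockdown (-0.14, edgeR adjusted p = 0.019). Gins2, a subunit of the GINS complex, stood at 35.8, 35.1 and 33.1 CPM in the double knockdown, 32.4, 33.5 and 32.2 in the Btg1 knockdown and 32.7, 32 and 32.7 in the Btg2 knockdown, against 34.7, 33.6 and 33.5 CPM in scramble. It passed in none of the 6 comparisons of edgeR, unlike Gins1 of the same complex. Gins2 overlaps the protein-coding gene Gse1 by 2692 bases in GRCr8, so its counts may hold reads of Gse1. Ccne1 was at -0.08 ± 0.08, Ccne2 at -0.20 ± 0.10 and Mcm3 at -0.11 ± 0.06.

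E2f1 fell by 0.34 ± 0.11 (edgeR adjusted p = 0.022), with 10.4, 12.1 and 11.6 CPM in the double knockdown against 11.4, 16 and 15.7 CPM in scramble. The groups overlapped, and the call ended without double knockdown replicate 1 (adjusted p = 0.087), scramble replicate 2 (0.12) or scramble replicate 3 (0.1). Scramble replicate 1 held the lowest E2f1 value of its group. The calls of Cdk2, E2f3, Cdc6, Cdt1, Mcm4, Mcm5, Mcm7, Fen1, Rrm2, Tk1 and Uhrf1 held in every fit that left out 1 library, and the count of members called ranged from 13 to 20.

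The double knockdown against the Btg1 knockdown asked what the Btg2 siRNA did where Btg1 was already reduced. This comparison uses the Btg1 knockdown libraries set against scramble above, so its lower values are not independent of the rises there. Of 33 members 26 were lower and 0 higher, where 11.9% of all tested genes were lower and 10.3% higher, 22.3% in all. The median was -0.41 on the log2 scale, against -0.001 over all genes. At an unadjusted p under 0.05 edgeR had 27 lower and 0 higher, and DESeq2 called 26 lower and 0 higher. By role, 10 of 11 licensing genes, 6 of 7 fork and polymerase genes, 3 of 4 nucleotide genes, 3 of 4 helicase activation genes, 2 of 3 E2F genes, 1 of 3 cyclin and kinase genes and Uhrf1 were lower. Btg1 itself was also lower than in the Btg1 knockdown, by 0.36 ± 0.05 (edgeR adjusted p = 5.6e-06), and Btg2 by 1.35 ± 0.04 (adjusted p = 4.2e-16).

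E2f1 showed the largest difference, -0.96 ± 0.11 (SE, edgeR adjusted p = 2.9e-06): its 10.4, 12.1 and 11.6 CPM in the double knockdown stood against 20.7, 21.2 and 24.3 CPM in the Btg1 knockdown. Cdt1 was lower by 0.88 ± 0.10 on the log2 scale (edgeR adjusted p = 2.3e-06), with 6.84 to 7.39 CPM in the double knockdown against 11.6 to 14.4 CPM in the Btg1 knockdown. Mcm6 stood at 28.1, 33.5 and 28.1 CPM in the double knockdown, against 47.6, 47.5 and 51.6 CPM in the Btg1 knockdown, a difference of -0.71 ± 0.08 (edgeR adjusted p = 1.3e-06). None of the 3 overlapped between the groups. Further differences were -0.94 ± 0.14 in Cdc6, -0.91 ± 0.11 in Mcm5, -0.89 ± 0.23 in E2f7, -0.83 ± 0.11 in Uhrf1, -0.79 ± 0.11 in Pole, -0.77 ± 0.12 in Rrm2 and -0.75 ± 0.14 in Cdc45.

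The members that did not pass there were Ccne2 (-0.08 ± 0.10), Cdk2 (0.07 ± 0.06), E2f3 (-0.20 ± 0.11), Orc1 (-0.28 ± 0.19), Gins2 (0.08 ± 0.05), Rfc4, a subunit of the clamp loader (-0.07 ± 0.10), and Tyms (-0.15 ± 0.06). Leaving out 1 library at a time left 23 to 26 members lower and 0 higher. The calls of Orc6, Pola1 and Lig1 ended in at least 1 of those fits, and the other 23 in none.

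The double knockdown against the Btg2 knockdown asked the converse, what the Btg1 siRNA did where Btg2 was already reduced. There 4 members were higher and 3 lower, where 15.2% of all tested genes were higher and 17.0% lower, 32.2% in all (19.5% and 14% when scaled by library size alone), and the median was 0.05 on the log2 scale, against 0.001 over all genes. Higher were Ccne1, Cdk2 (0.24 ± 0.06), Prim1 (0.21 ± 0.07) and Mcm3 (0.19 ± 0.06), and lower were E2f3, Mcm4 and Mcm7 (-0.22 ± 0.06).

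Ccne1 stood at 12.5, 14.2 and 12.5 CPM in the double knockdown, against 9.49, 9.57 and 9.62 CPM in the Btg2 knockdown, and was higher by 0.45 ± 0.08 on the log2 scale (SE, edgeR adjusted p = 0.00024). E2f3 stood at 6.65, 6.64 and 6.3 CPM in the double knockdown and 7.91, 7.38 and 7.22 in the Btg1 knockdown, with 11.5, 10.7 and 11.9 in the Btg2 knockdown and 10.4, 7.76 and 9.74 CPM in scramble. The difference between double and Btg2 knockdowns was -0.80 ± 0.11 (edgeR adjusted p = 2.8e-06). Mcm4 stood at 39, 39.9 and 36.5 CPM in the double knockdown and 48.4, 48.6 and 54.4 in the Btg1 knockdown, with 47.4, 49.7 and 43.1 in the Btg2 knockdown and 48, 50.8 and 51.6 CPM in scramble. Its double knockdown libraries lay below the 9 others, and the difference from the Btg2 knockdown was -0.28 ± 0.06 (edgeR adjusted p = 0.0011). Calls of Ccne1, Cdk2, E2f3, Mcm4 and Mcm7 held without any 1 library, while those of Mcm3 and Prim1 ended in several such fits.

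**Figure D3:**
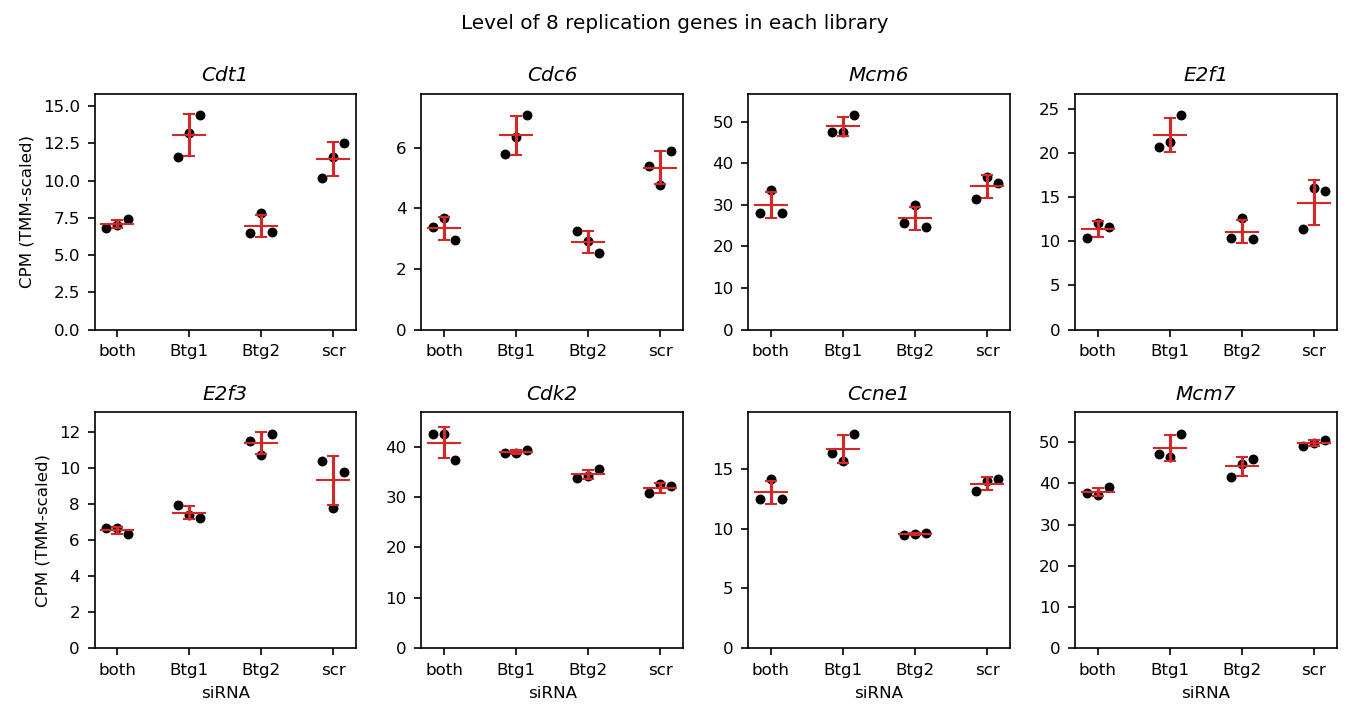
CPM (y axis, from 0) of 8 replication genes in each library (black points) by siRNA (both, Btg1, Btg2 and scr for scramble), with the group mean and SD in red. Cdt1 and Cdc6 are low wherever the Btg2 siRNA was given, E2f3 is lowest with both siRNAs, and Mcm7 is lowest with both.

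The effect of each siRNA in the presence and in the absence of the other comes from comparisons that share no library. With the Btg1 siRNA present, the Btg2 siRNA left 26 members lower, and without it 18. All 18 were among the 26, which is 69.2% of the 26 and 100% of the 18. Over all tested genes, 538 were lower in both, 36% of the 1494 lower with the Btg1 siRNA and 31.5% of the 1709 lower without it. With the Btg1 siRNA present 78.8% of members were lower, against 11.9% of all tested genes, so these overlaps are not comparable. With the Btg2 siRNA present, the Btg1 siRNA left 4 members higher, and without it 18. The 4 (Ccne1, Cdk2, Mcm3 and Prim1) were among the 18, 100% of the 4 and 22.2% of the 18. Over all tested genes, 979 were higher in both, 51.3% of the 1909 higher with the Btg2 siRNA and 41.8% of the 2342 higher without it. Without the Btg2 siRNA 54.5% of members were higher, against 18.7% of all tested genes, so these overlaps are not comparable either.

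Whether the effects of the siRNAs add on the log2 scale was tested in the same fit. Of 33 members 6 departed downward and 0 upward, where 10.1% of all tested genes departed downward and 4.99% upward, 15.1% in all (8.11% and 8.01% when scaled by library size alone, which left 4 members downward). The median departure was -0.15 on the log2 scale, against 0.009 over all genes. At an unadjusted p under 0.05, 12 members departed downward and 0 upward, and DESeq2 called 9 downward and 0 upward. They were E2f1 (-0.57 ± 0.16, SE, edgeR adjusted p = 0.02), E2f3 (-0.50 ± 0.15, adjusted p = 0.025), Uhrf1 (-0.48 ± 0.16, adjusted p = 0.045), Pola1 (-0.42 ± 0.13, adjusted p = 0.032), Mcm6 (-0.33 ± 0.11, adjusted p = 0.046) and Mcm4 (-0.28 ± 0.08, adjusted p = 0.026). In each, the Btg2 siRNA effect was more negative with the Btg1 siRNA than without it: for E2f1 the effects were -0.96 and -0.39 on the log2 scale, and for E2f3 -0.20 and 0.30. Cdt1 (-0.14 ± 0.15), Cdc6 (-0.06 ± 0.20) and Cdk2 (-0.05 ± 0.08) did not pass.

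The count of departures was small and moved with single libraries. It was 1 without Btg1 knockdown replicate 3 or Btg2 knockdown replicate 2, 2 without double knockdown replicate 3 or scramble replicate 1, and 3 without double knockdown replicate 1, Btg1 knockdown replicate 1, Btg2 knockdown replicate 1 or scramble replicate 2. None of the 6 passed in all 12 of these fits.

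**Figure D4:**
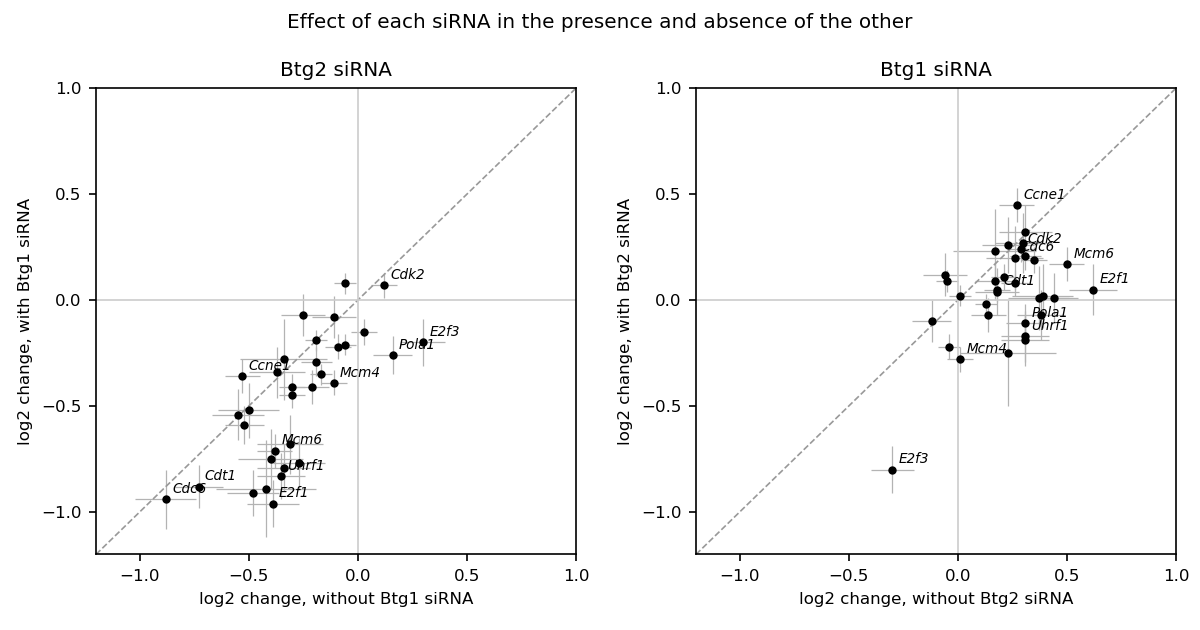
Log2 change with SE of 33 replication genes for the Btg2 siRNA (left) and the Btg1 siRNA (right), with the other siRNA present (y axis) and absent (x axis); on the dashed line both changes are equal. Most points of the left panel lie below 0 on both axes, and E2f3 stands apart in the right panel at -0.80 and -0.30.

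Of 59 further genes of replication and the G1/S switch, 54 were tested. In the double knockdown against scramble 16 fell and 8 rose, where 19.5% of all tested genes fell and 19.4% rose. In the Btg1 knockdown 11 rose and 2 fell, a share of rises (20.4%) near the 18.7% of all tested genes. In the Btg2 knockdown 14 fell and 5 rose, where 13.6% of all tested genes fell and 16.4% rose, and in the double against the Btg1 knockdown 19 were lower and 3 higher, where 11.9% of all tested genes were lower and 10.3% higher. Cdc25a, which encodes a Cdk2-activating phosphatase, rose in each knockdown, by 0.64 ± 0.05 in the double knockdown, 0.32 ± 0.05 with the Btg1 siRNA alone and 0.48 ± 0.05 with the Btg2 siRNA alone (log2, SE, edgeR adjusted p = 2.2e-10, 8e-06 and 6.7e-08). Pole4, a small subunit of polymerase epsilon, rose by 0.55 ± 0.05 in the double knockdown and 0.30 ± 0.05 in the Btg1 knockdown. With the Btg2 siRNA alone Pole4 stood at 45.4, 44.2 and 44.1 CPM, also above its 37.5, 39.3 and 41 CPM in scramble. Rfc5, another clamp loader subunit, fell by 0.48 ± 0.08 in the double knockdown and 0.51 ± 0.08 in the Btg2 knockdown. The histone chaperone gene Asf1b was lower by 0.94 ± 0.10 in the double than in the Btg1 knockdown, and the maintenance methyltransferase gene Dnmt1 by 0.36 ± 0.05. Cdc7, the kinase that fires origins, rose by 0.52 ± 0.10 in the Btg1 knockdown.

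Beside these, 10 G2/M markers gave 9 falls and 0 rises in the double knockdown against scramble, 9 rises and 0 falls in the Btg1 knockdown, 8 falls and 0 rises in the Btg2 knockdown, and 10 lower in the double than in the Btg1 knockdown (edgeR), where 19.5% of all tested genes fell, 18.7% rose, 13.6% fell and 11.9% were lower in these comparisons. DESeq2 called 8, 9, 8 and 10 of them in the same directions, and in neither tool, nor at an unadjusted p under 0.05 in edgeR, did any marker pass in the other direction in these 4 comparisons. These markers, like the other gene lists, were chosen with earlier results of these data known. Plk1, a mitotic kinase, was at -0.42 ± 0.11, 0.45 ± 0.10, -0.39 ± 0.11 and -0.86 ± 0.11 in those comparisons (log2 change and SE). Aurkb, another mitotic kinase, fell by 0.70 ± 0.11 in the double knockdown, and Ccnb1, cyclin B1, rose by 0.41 ± 0.08 with the Btg1 siRNA alone. The mean log2 CPM of the 10 relative to scramble was -0.43, -0.28 and -0.35 in the double knockdown libraries, 0.37, 0.17 and 0.48 with the Btg1 siRNA alone, -0.44, -0.28 and -0.30 with the Btg2 siRNA alone and -0.14, -0.01 and 0.15 in scramble.

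Markers of non-myocytes moved with some of the groups. Whether these cells divided in the cultures was not measured. The 9 fibroblast markers summed to 12435 to 13506 CPM in the double knockdown, 12347 to 14651 with the Btg1 siRNA alone, 15182 to 16064 with the Btg2 siRNA alone and 15260 to 15824 in scramble. Against scramble, 8 of the 9 fell in the double knockdown, 8 with the Btg1 siRNA alone and 5 with the Btg2 siRNA alone, where 19.5%, 17.8% and 13.6% of all tested genes fell, and 1 was lower in the double than in the Btg1 knockdown, where 11.9% were. Their median log2 change was -0.29, -0.21, -0.14 and -0.09 in these comparisons. With the Btg2 siRNA alone the sum overlapped that of scramble, while Pdgfra and Tcf21 each fell by 0.33 on the log2 scale and the collagen Col1a1, the most abundant marker, stood at 6033, 6296 and 5768 CPM against 5875, 5836 and 5670 CPM in scramble. The 9 endothelial markers summed to 85.3 to 90.1 CPM in the double knockdown, 102 to 114 with the Btg1 siRNA alone, 105 to 111 with the Btg2 siRNA alone and 121 to 127 in scramble. Of these, 7, 2 and 4 fell against scramble in the double, Btg1 and Btg2 knockdowns, where 19.5%, 17.8% and 13.6% of all tested genes fell. The share in the Btg1 knockdown (22.2%) was thus near that of all tested genes. Tek rose in the double knockdown (0.33 ± 0.09) and with the Btg1 siRNA alone (0.25 ± 0.09). In the double against the Btg1 knockdown 4 of the 9 endothelial markers were lower, where 11.9% of all tested genes were, with a median of -0.35 on the log2 scale. The 7 macrophage markers summed to 30.8 to 32.3, 26.7 to 31.2, 26.4 to 27.7 and 33.7 to 42.6 CPM in the same order of groups. Against scramble, 1, 2 and 4 of them fell in the double, Btg1 and Btg2 knockdowns, and 0 rose. Of all tested genes, 19.5%, 17.8% and 13.6% fell there. In the double against the Btg1 knockdown 2 were higher and 0 lower, where 10.3% of all tested genes were higher. None of these markers was at 0 in every library. The part of these cells in the replication gene changes was not tested.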

How the data were processed

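RNA of 12 libraries was amplified with Ovation RNA-Seq System v2 and sequenced in read pairs after Nextera XT library preparation, per the labels' protocols. The authors deposited whole-number read counts per gene and a table of TPM (scaled per gene length and library). FastQC, Trim Galore, cutadapt, STAR, featureCounts and the build rn5 are named in the submitters' processing notes, while versions, annotation and strand setting were not given in the sources used. RefSeq sequences and gene overlaps come from GRCr8.

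Counts were tested with edgeR 4.0.16 in R 4.3.3 (TMM, filterByExpr, quasi-likelihood test, 1 fit of 4 groups with 8 residual degrees of freedom), and p-values were adjusted by Benjamini-Hochberg over 12535 genes (threshold 0.05), after 4884 were removed for low counts. CPM were computed from the deposited counts. The biological coefficient of variation was 4.97%. The departure from additivity is the double knockdown change minus the sum of both single ones. The alternatives were DESeq2 1.42.0, limma 3.58.1 on log2 TPM with pseudocounts 1 and 0.1, other scalings and filters, only the groups compared, a replicate block and fits without each library. The fit was tested on simulated data. No replicates agreed within sampling noise.

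Members and gene lists were chosen with earlier results of these data known. Genes given in every library are the 3 members with the smallest p in each comparison and the most abundant of each role, and further pathway genes are named by the 3 smallest p. Other members are described by role. Mcm9, Topbp1, Ticrr, Dna2 and E2f5 of the wider list, and the epicardial marker Upk3b, were not analysed here. Marker lists of smooth muscle, epicardial and erythroid cells summed, in the order double, Btg1, Btg2 knockdown and scramble, to 2224 to 2390, 2367 to 2982, 2426 to 2775 and 2168 to 2312 CPM, to 27.5 to 31.1, 30.7 to 34.7, 26.6 to 31.2 and 30.2 to 34 CPM, and to 1.07 to 1.46, 1.17 to 1.57, 1.35 to 2.07 and 1.11 to 1.52 CPM.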

Additional observations from a re-analysis of the deposited data

Results flagged for a closer look

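In 6 of the 33 members (18.2%) the effect of the Btg2 siRNA differed between cultures with and without the Btg1 siRNA. The test was the interaction term of the edgeR fit. Over all tested genes the share was 15.1%, near that of the members, with 10.1% downward and 4.99% upward. The difference between the log2 effects was -0.57 in E2f1, -0.50 in E2f3, -0.48 in Uhrf1, -0.42 in Pola1, -0.33 in Mcm6 and -0.28 in Mcm4. In E2f1 it passed in 10 of 12 fits that left out 1 library, in E2f3 in 8, in Mcm4 in 7, in Pola1 and Uhrf1 in 4 each and in Mcm6 in 3. Leaving out replicate 3 of the Btg1 knockdown or replicate 2 of the Btg2 knockdown ended the call in E2f1 (adjusted p = 0.058 and 0.06). Btg1 and Btg2 themselves departed from additivity too, by -0.44 ± 0.06 and -0.65 ± 0.06 on the log2 scale (SE), so the targets were lower in the double knockdown than the single knockdowns add up to. The part of that in the other differences was not tested.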

How the results depend on the processing

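Of the counts of replication genes called, that of departures from additivity depended most on the processing: 6 with edgeR, 2 with limma on log2(TPM + 1) and 2 on log2(TPM + 0.1), and 1 to 8 without 1 library. Leaving out 1 library gave 9 to 18 calls for the Btg1 knockdown (19 in full), 10 to 19 for the Btg2 knockdown (19), 13 to 20 for the double knockdown against scramble (18), 23 to 26 against the Btg1 knockdown (26) and 5 to 8 against the Btg2 knockdown (7). Replicate numbers did not pair the libraries (correlations of -0.092 to 0.0599 between same-numbered libraries), and with a replicate block the counts were 18 for the double, 19 for the Btg1 and 20 for the Btg2 knockdown against scramble, 26 and 8 for the double against the Btg1 and Btg2 knockdowns, and 8 departures. The other settings kept each count within 1.5 times. No called member changed sign under any setting. Of 360 alternatives for 23 values of single genes, 340 kept their side of the threshold, 19 lost it and 1 gained it (Rrm1). Most of the 23 were picked for the smallest p, so their calls are the least easily lost. Among all members, calls held in every fit without 1 library for 11 of 18 in the double, 8 of 19 in the Btg1 and 9 of 19 in the Btg2 knockdown against scramble. They held for 23 of 26 and 5 of 7 in the double against the Btg1 and Btg2 knockdowns, and for 0 of 6 departures. With limma the fall of E2f1 in the double knockdown against scramble did not pass (adjusted p = 0.056 with both pseudocounts). Depth limits E2f7, Orc1 and Cdc6 most, with lowest counts of 29, 54 and 69 in a library, and n = 3 limits each comparison.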
